A study of Mus musculus with 6 samples.

Results

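Checkpoint receptors set how strongly a T cell answers antigen. The 10 genes described here were taken as a named list of co-stimulatory and co-inhibitory receptors and their ligand, namely *Cd28*, *Icos*, *Ctla4*, *Pdcd1*, *Btla*, *Lag3*, *Havcr2*, *Tigit*, *Cd160* and *Cd274*, out of 56748 genes in the deposited count table. All 10 are listed in the table, and all 10 had enough counts to be tested. Expression was measured by RNA-seq of polyA RNA in 6 libraries, 3 with the label scrambled ASO and 3 with the label *Pgam* ASO. An ASO is a short synthetic strand that pairs with a matching RNA, and here the intended match was the mRNA for phosphoglycerate mutase, a glycolytic enzyme, while the scrambled strand served as control. Naïve CD4 cells were isolated by negative selection from spleen and lymph nodes of wild-type C57BL/6 J mice aged 6 to 10 weeks. In both groups the cells were stimulated through CD3 and CD28 with antibodies, given IL-2, TGF-β and antibodies against IFNγ and IL-4 to favour Tregs, exposed to ASOs at 10 μM, and collected unsorted after 3 days. The receptor encoded by *Cd28* was thus itself engaged by antibody in every culture. The study calls the samples biological replicates, but neither its methods nor the labels say which animals gave which library, so p-values measure the spread between these samples. Total counts ran from 15860476 to 18032805 per library.

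CD28 and ICOS are co-stimulatory receptors, which add to the signal of the T cell receptor. CTLA-4, PD-1 and BTLA belong to the same immunoglobulin family and restrain it, and CTLA-4 competes with CD28 for the ligands CD80 and CD86. LAG-3, TIM-3 (*Havcr2*), TIGIT and CD160 are further inhibitory or modulating receptors, while PD-L1 (*Cd274*) is a ligand of PD-1. Tregs are known for high CTLA-4, and many of these receptors appear on T cells only after activation.

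The targeted genes were examined in every library as a check of the labels. Expression is given in library-scaled counts (CPM, TMM method), and a positive log2 fold change means more RNA under the *Pgam* ASO label. Values for *Pgam1* were 599.6, 478 and 707 CPM under the scrambled ASO label and 658, 661 and 707 CPM under the *Pgam* ASO label, with a log2 fold change of 0.18 ± 0.13 (SE, n = 3 per group, edgeR adjusted p = 0.331 by the quasi-likelihood F-test and the method of Benjamini and Hochberg). *Pgam2* stood at 5.23, 6.75 and 2.85 CPM against 2.98, 2.69 and 2.60 CPM, a log2 fold change of -0.84 ± 0.31 (SE, edgeR adjusted p = 0.0854). Without scrambled ASO replicate 3, the edgeR adjusted p of *Pgam2* was 0.0144. The groups overlapped for both genes and neither passed the threshold of 0.05 in the fit used here. With no filter on low counts *Pgam2* did pass (edgeR adjusted p = 0.0292). Groups are therefore named by their labels. By flow cytometry, the paper reports lower PGAM1 protein in cells cultured with *Pgam* ASOs than with scrambled ASOs under Treg polarizing conditions. Only RNA was measured in these libraries, so the protein level was not tested. *Foxp3*, the lineage factor of Tregs, fell from 282, 371 and 222 CPM to 89.7, 109 and 131 CPM.

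The labelled cell type was checked against defining markers. The 7 T cell identity genes (*Cd3d*, *Cd3e*, *Cd3g*, *Cd247*, *Trac*, *Cd4* and *Thy1*) summed to 2868, 2932 and 2803 CPM under the scrambled ASO label and to 2629, 2741 and 2814 CPM under the *Pgam* ASO label. *Trac*, which encodes the constant part of the receptor's alpha chain, fell (log2 fold change -0.30, edgeR adjusted p = 0.0416), and the other 6 did not pass. *Thy1*, the most abundant, had a log2 fold change of 0.21 and stood higher in every library of the *Pgam* ASO group without passing. Without *Thy1* the sums were 1887, 2049 and 1745 CPM against 1510, 1599 and 1699 CPM, with no overlap, and *Cd3d*, *Cd3e*, *Cd3g*, *Trac* and *Cd4* each stood lower in all *Pgam* ASO libraries. Over all tested genes, the groups did not overlap in 39.5%, in either direction. *Ighm*, which encodes the immunoglobulin mu chain of B cells, was named after its values were seen. It measured 319.9, 447 and 216 CPM against 75.6, 111 and 142 CPM and fell (log2 fold change -1.58, edgeR adjusted p = 0.0282). The part of these shifts in the results that follow was not tested.

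Of the 10 checkpoint genes, 1 rose and 1 fell at an edgeR adjusted p under 0.05, which is 20% of the list. Over all 14936 tested genes the share was 17.2%, with 8.03% higher and 9.15% lower in the libraries labelled *Pgam* ASO, so the share among checkpoint genes lay near that of the whole table. The median log2 fold change was -0.14 over the list and -0.0061 over all tested genes. In 3 of the 10 the libraries of the groups did not overlap, against 39.5% of all tested genes. The count of 2 became 5 with no filter on low counts, where *Ctla4*, *Lag3* and *Tigit* also passed and the share over all genes was 13.1%. It became 1 (*Cd28*) without scrambled ASO replicate 1, where the share over all genes was 4.02%, and 1 (*Cd28*) without *Pgam* ASO replicate 2, where it was 2.51%. Without those libraries the share called over all genes was thus lower as well.

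**Figure D1:**
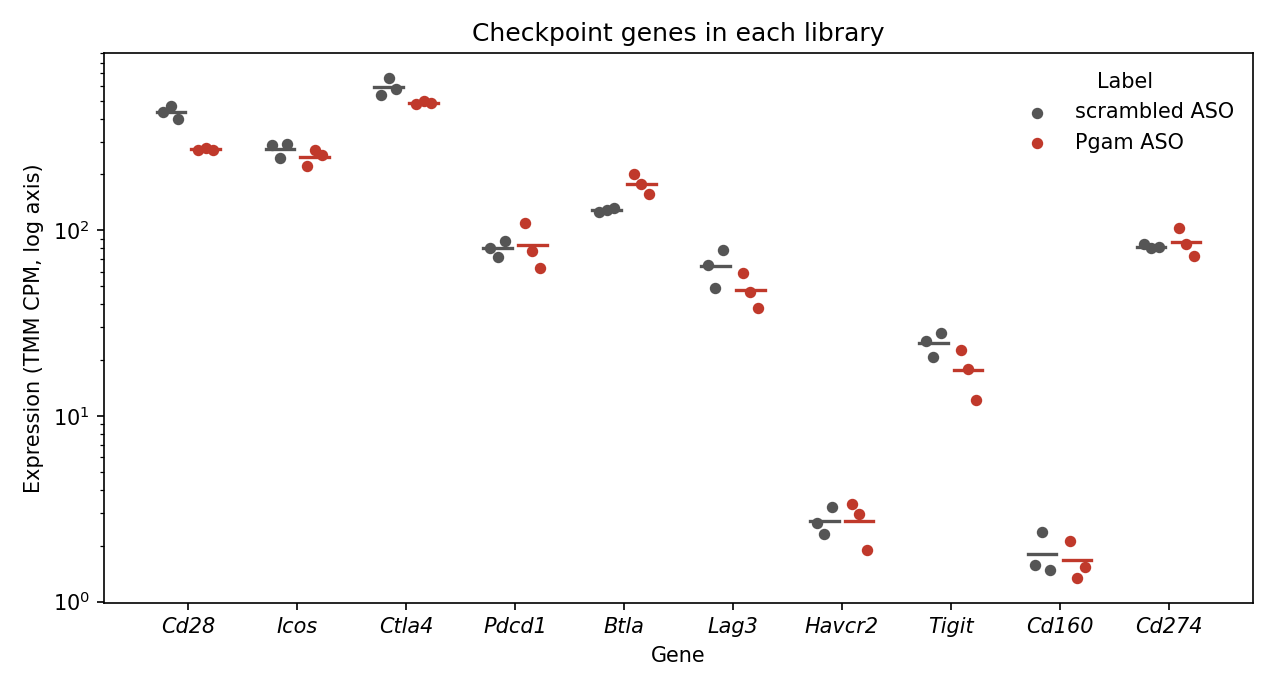
Expression of the 10 checkpoint genes in TMM CPM on a log axis, with a point for each library, a bar for each group mean, and n = 3 libraries per label. *Cd28* was below 280 CPM in each library labelled *Pgam* ASO and above 390 CPM in each labelled scrambled ASO, and *Btla* showed the opposite order.

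*Cd28* (ENSMUSG00000026012, chromosome 1, 60716800 to 60773359, plus strand, GRCm38) encodes the main co-stimulatory receptor of naïve T cells. It measured 434, 469.5 and 397 CPM in replicates 1, 2 and 3 of the scrambled ASO group and 271, 279 and 272 CPM in those of the *Pgam* ASO group. Every library of the latter lay below every library of the former, and the *Pgam* ASO libraries lay close together. The mean fell from 433 ± 36.4 to 274 ± 4.37 CPM (SD, n = 3), which is 1.58-fold lower, with a 95% interval from 1.39-fold to 1.81-fold. The log2 fold change was -0.66 ± 0.086 (SE, edgeR adjusted p = 0.00183), and *Cd28* passed the threshold under each of the 8 other settings and with each library left out. In a bulk sample, fewer cells that express a gene and less RNA per cell cannot be told apart.

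*Icos* (ENSMUSG00000026009, chromosome 1, 60977927 to 61000320, plus strand) encodes the inducible co-stimulator, which appears after activation. Its expression was 289.7, 246 and 290.2 CPM against 221, 271 and 255 CPM, and libraries of either label overlapped. The log2 fold change was -0.15 (95% interval -0.38 to 0.082, edgeR adjusted p = 0.339), and no difference was detectable beyond the spread.

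*Ctla4* (ENSMUSG00000026011, chromosome 1, 60887000 to 60915832, plus strand) encodes the inhibitory competitor of CD28. It measured 539, 662 and 577 CPM under the scrambled ASO label and 477, 499 and 486 CPM under the *Pgam* ASO label. The groups did not overlap, and their means were 592 ± 62.8 and 487 ± 10.6 CPM (SD, n = 3). With a log2 fold change of -0.28 ± 0.091 (SE) it did not pass (edgeR adjusted p = 0.0575). It did pass with DESeq2 (adjusted p = 0.0385), with library size alone (0.0430) and with no filter on low counts (0.0462), and its adjusted p over the 8 other settings ran up to 0.113.

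*Pdcd1* (ENSMUSG00000026285, chromosome 1, 94038305 to 94052553, minus strand) encodes PD-1. Its values of 80.4, 71.9 and 87.7 CPM lay inside the range of the *Pgam* ASO libraries, which had 109.9, 77.7 and 63.0 CPM. The log2 fold change was 0.063 (95% interval -0.35 to 0.48, edgeR adjusted p = 0.837). Replicate 1 was the highest of the *Pgam* ASO libraries, and without it the log2 fold change was -0.18.

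*Btla* (ENSMUSG00000052013, chromosome 16, 45224315 to 45257670, plus strand) encodes an inhibitory receptor that binds HVEM, a member of the tumour necrosis factor receptor family. It measured 125, 129 and 132 CPM under the scrambled ASO label and 202, 177 and 157 CPM under the *Pgam* ASO label. All libraries of the latter group were higher. The mean rose from 128 ± 3.38 to 178 ± 22.9 CPM (SD, n = 3), which is 1.39-fold higher with a 95% interval from 1.19-fold to 1.62-fold. The log2 fold change was 0.48 ± 0.10 (SE, edgeR adjusted p = 0.0152). Without scrambled ASO replicate 1 the edgeR adjusted p was 0.0750 (log2 fold change 0.45), and without *Pgam* ASO replicate 2 it was 0.0797 (log2 fold change 0.48).

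**Figure D2:**
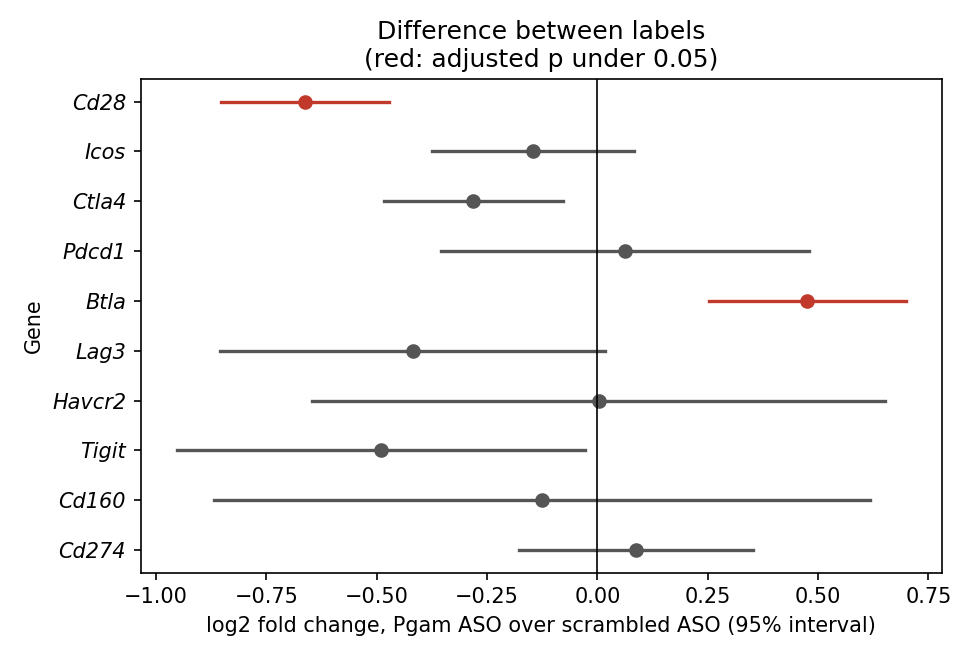
Log2 fold change of each checkpoint gene, *Pgam* ASO over scrambled ASO, from edgeR with n = 3 libraries per label, where points are estimates, lines are 95% intervals, and red marks an adjusted p under 0.05. *Cd28* at -0.66 and *Btla* at 0.48 are marked, and the intervals of *Ctla4* and *Tigit* also leave out 0 without an adjusted p under 0.05.

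RefSeq promoters on GRCm38.p6 were at hand for 7 of the 10 genes, all but *Cd28*, *Icos* and *Lag3*. The stretch from 250 to 51 bases before the start is shown for *Btla*, the inhibitory receptor that rose, and for *Ctla4*, the neighbour of *Cd28* whose groups did not overlap. That of *Btla* is chr16:45224087-45224286 and that of *Ctla4* is chr1:60908775-60908974, both on the plus strand and without an annotated exon in GENCODE M21. Capitals mark a match to any of 4 short motifs on either strand.
Btla: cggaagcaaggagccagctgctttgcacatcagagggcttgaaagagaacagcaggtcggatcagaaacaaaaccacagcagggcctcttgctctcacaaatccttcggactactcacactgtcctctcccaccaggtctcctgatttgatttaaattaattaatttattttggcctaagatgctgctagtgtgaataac
Ctla4: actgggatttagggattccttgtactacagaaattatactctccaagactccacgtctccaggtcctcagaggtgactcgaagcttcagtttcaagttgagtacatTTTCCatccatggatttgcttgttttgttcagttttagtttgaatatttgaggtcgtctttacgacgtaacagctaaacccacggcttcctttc
The motifs searched were GGAAA (the core bound by NFAT), TGANTCA (AP-1), GTAAACA (forkhead factors) and TTCNNNGAA (STAT factors). Over 32851 promoters, windows of 200 bases held GGAAA in 48.5%, TGANTCA in 5.57%, GTAAACA in 2.58% and TTCNNNGAA in 5.76%. The *Ctla4* window had 1 match to GGAAA, shown in capitals on the opposite strand, and the *Btla* window had 0 matches to the 4 motifs. A match is a description of the letters only.

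*Lag3* (ENSMUSG00000030124, chromosome 6, 124904361 to 124911705, minus strand) encodes a CD4-related receptor for MHC class II. It measured 64.8, 49.1 and 78.1 CPM against 58.8, 46.6 and 38.2 CPM, with overlap between the groups. Its log2 fold change was -0.42 (95% interval -0.86 to 0.017, edgeR adjusted p = 0.157), and with no filter on low counts the adjusted p was 0.00407.

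*Tigit* (ENSMUSG00000071552, chromosome 16, 43648867 to 43664146, minus strand) encodes a receptor for CD155 and related nectins. Its expression was 25.2, 20.8 and 28.1 CPM under the scrambled ASO label and 22.6, 17.9 and 12.2 CPM under the *Pgam* ASO label. The ranges met only through replicate 1 of the *Pgam* ASO group, which exceeded replicate 2 of the other. The log2 fold change was -0.49 (95% interval -0.95 to -0.029, edgeR adjusted p = 0.123), with an adjusted p of 0.00938 under no filter on low counts. *Tigit* shares 8.37% of its 31-base stretches with transcripts of other genes, among which Kallisto, the tool that estimated the counts, has to divide reads.

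*Havcr2* (ENSMUSG00000020399, chromosome 11, 46454935 to 46481255, plus strand) and *Cd160* (ENSMUSG00000038304, chromosome 3, 96798763 to 96829351, minus strand) were the least counted. TIM-3 transcripts were counted 47, 43 and 52 times under the scrambled ASO label and 54, 46 and 32 times under the *Pgam* ASO label. For *Cd160* the counts were 28, 44 and 24 against 34, 21 and 26. Both genes overlapped between groups. Their 95% intervals of the log2 fold change, from -0.65 to 0.65 for *Havcr2* and from -0.87 to 0.62 for *Cd160*, are wide, so differences within them are not excluded.

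*Cd274* (ENSMUSG00000016496, chromosome 19, 29367455 to 29388095, plus strand), the ligand among the 10, measured 84.0, 80.3 and 80.9 CPM against 103, 84.4 and 72.7 CPM. The *Pgam* ASO libraries spread on both sides of the others. The log2 fold change was 0.087 (95% interval -0.18 to 0.35, edgeR adjusted p = 0.639). An antisense gene, *AC119228.1*, shares 12.1% of the 31-base stretches of *Cd274* and had 2398 counts over all libraries, and the strand setting of the counting is not given in the sources used here. Summed with it, a setting chosen after seeing the data, *Cd274* stood at 0.096 on the log2 scale (edgeR adjusted p = 0.624).

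To compare genes, levels were divided by the length of each gene's merged exons. Per kilobase, *Ctla4* led in both groups, at 254 ± 27.0 CPM per kb (SD, n = 3) under the scrambled ASO label and 209 ± 4.56 CPM per kb under the *Pgam* ASO label. *Icos* followed at 80.3 ± 7.31 and 72.5 ± 7.41 CPM per kb. In the scrambled ASO group came *Cd28* (70.8 CPM per kb), *Pdcd1* (41.4), *Btla* (37.8), *Lag3* (30.4), *Tigit* (26.9) and *Cd274* (22.6), with *Havcr2* (1.0) and *Cd160* (0.686) last. Neighbours in that order overlapped in their libraries, except for *Ctla4* and *Icos*, *Cd28* and *Pdcd1*, and *Cd274* and *Havcr2*. In the *Pgam* ASO group *Btla* stood at 52.5 CPM per kb, above *Cd28* at 44.7 CPM per kb, and those libraries did not overlap. With the longest transcript in place of merged exons, *Cd28* (99.7 CPM per kb) stood above *Icos* (85.0 CPM per kb) in the scrambled ASO group, and above *Btla* (63.0 against 54.9 CPM per kb) in the other.

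Ratios of counts within a library do not depend on library size or scaling. The ratio of *Ctla4* to *Cd28*, receptors for the same ligands, was 1.24, 1.41 and 1.45 under the scrambled ASO label and 1.76, 1.79 and 1.79 under the *Pgam* ASO label. On the log2 scale, with 0.5 added to each count, the means were 0.45 ± 0.12 and 0.83 ± 0.011 (SD, n = 3), a difference of 0.38 (two-sided p = 0.1 in an exact permutation test). The ratio of *Icos* to *Cd28*, the pair of co-stimulatory receptors, went from a log2 mean of -0.65 ± 0.25 to -0.14 ± 0.13 (SD, n = 3), a difference of 0.51 (exact permutation p = 0.1). TIGIT and CD226 are opposed receptors that share ligands. *Cd226* (chromosome 18, 89176967 to 89272229) rose from 56.3, 65.4 and 58.2 CPM to 73.4, 88.4 and 74.7 CPM (log2 fold change 0.39 ± 0.10 SE, edgeR adjusted p = 0.0293). Without scrambled ASO replicate 1 the edgeR adjusted p of *Cd226* was 0.123, and without *Pgam* ASO replicate 2 it was 0.140. The log2 ratio of *Tigit* to *Cd226* was -1.16, -1.65 and -1.05 against -1.70, -2.30 and -2.61, a difference of -0.92 (exact permutation p = 0.1). No library of one group overlapped the other in any of the 3 ratios, and among single tested genes the groups did not overlap in 39.5%. The ratios of *Ctla4* and *Icos* share *Cd28* as denominator, so they are not separate from each other or from the fall of *Cd28*. The p of 0.1 is the smallest that 3 libraries against 3 allow, so the threshold could not be reached, and adjusted over the 3 ratios it was also 0.1.

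**Figure D3:**
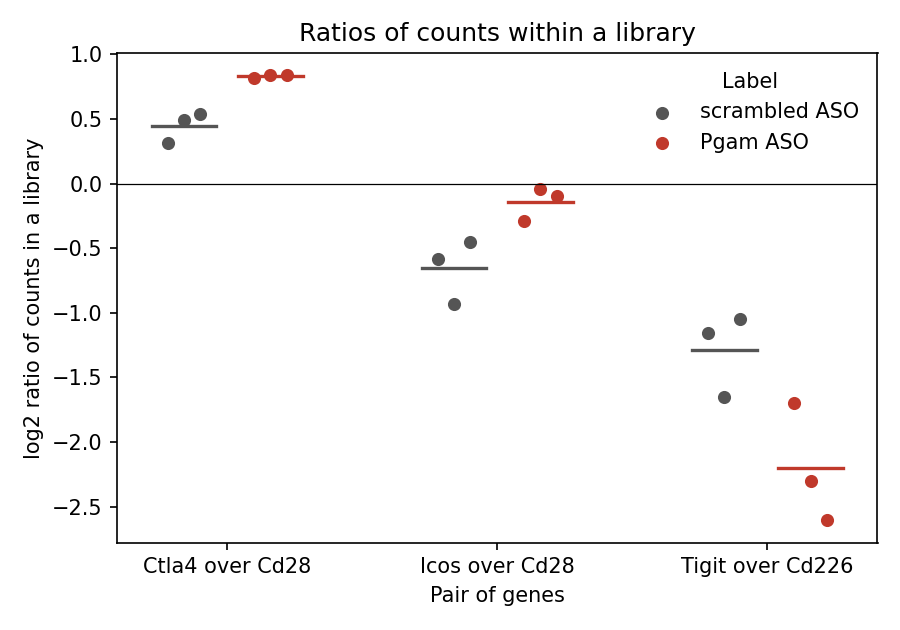
Log2 ratio of the counts of 2 genes in each library, with a point per library, a bar for the group mean, and n = 3 libraries per label. The *Pgam* ASO libraries are higher for *Ctla4* over *Cd28* and *Icos* over *Cd28*, by 0.38 and 0.51 in the mean, and lower for *Tigit* over *Cd226*, by a mean difference of -0.92.

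*Cd28*, *Ctla4* and *Icos* lie side by side on chromosome 1, and in GENCODE M21 the gene interval of *Ctla4* starts 170 kb and that of *Icos* 261 kb downstream of the start of *Cd28*. The RefSeq start used above for the *Ctla4* promoter lies inside that interval, further downstream, and distances here use the interval starts. Within 500 kb of the start of *Cd28*, 12 other genes were tested, of which 1 was higher and 2 were lower at an edgeR adjusted p under 0.05, beside 17.2% called over all tested genes. These were *Abi2* (log2 fold change 0.33), 307 kb upstream, *Gm37198* (-0.96), whose type is unconfirmed in GENCODE M21, and the noncoding gene *Gm11579* (-1.47). *Gm37198* and *Gm11579* lie 62.5 and 65.0 kb downstream and were low, at means of 3.43 and 2.56 CPM. All were named after their values were seen. The 5 tested neighbours of *Btla* had edgeR adjusted p-values from 0.0767 to 0.514. Around *Lag3*, where genes are dense, 43 others were tested, with 4 higher and 8 lower, among them *Cd27*, 325 kb upstream. Those near *Ctla4* were 11 with 1 higher and 3 lower, near *Icos* 10 with 3 lower, and near *Cd160* 17 with 3 lower. All called neighbours of *Ctla4* and *Icos* were *Cd28* itself or genes named above near *Cd28*, so these counts are not separate. *Pdcd1* had 6 with 1 higher, *Havcr2* 12 with 1 higher, *Tigit* 6 with 1 higher and 1 lower, and *Cd274* 18 with 1 higher and 1 lower.

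**Figure D4:**
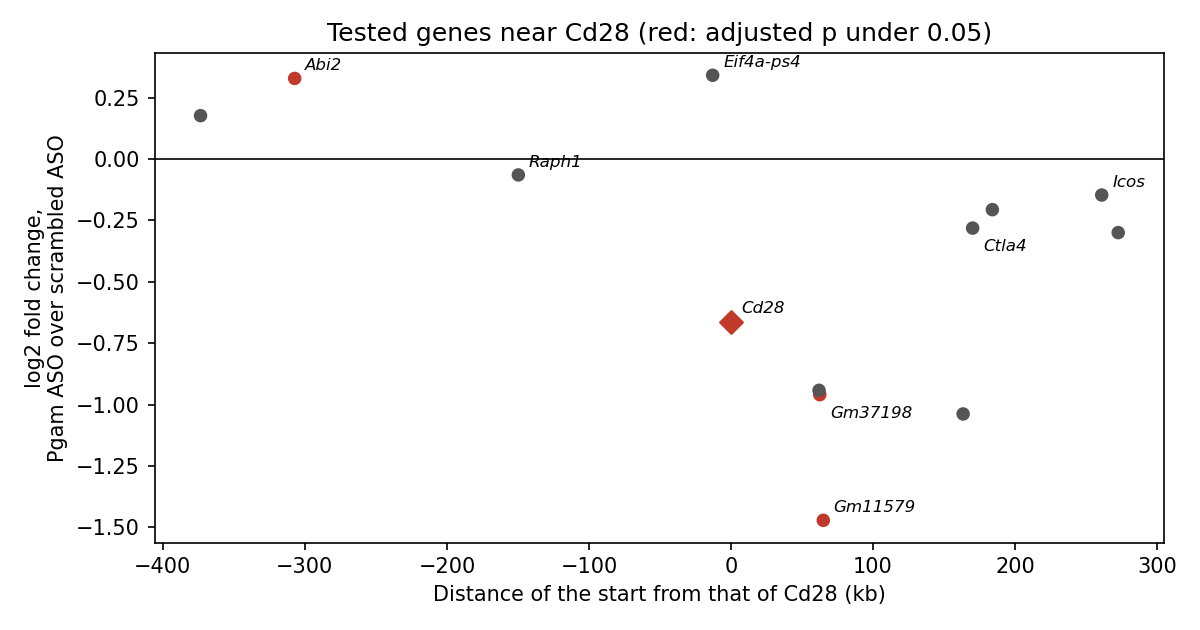
Log2 fold change, *Pgam* ASO over scrambled ASO, against the distance in kb of each tested gene's start from that of *Cd28*, with *Cd28* as a diamond and red for an edgeR adjusted p under 0.05. *Ctla4* and *Icos* lie at 170 and 261 kb with values of -0.28 and -0.15, nearer to 0 than the -0.66 of *Cd28*.

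The genes whose expression ran most like that of the 3 most expressed checkpoint genes were taken by Pearson's r of log2 CPM over the 6 libraries, as a description. For *Ctla4* they were *Armcx5*, ENSMUSG00000120129 and *Inpp4a*, with r from 0.992 to 0.995. For *Cd28* they were *Adal*, *Zfp281* and *Nfat5*, with r from 0.997 to 0.998, of which *Zfp281* fell (log2 fold change -1.03, edgeR adjusted p = 0.000768), *Nfat5* fell (-0.72, edgeR adjusted p = 0.00139) and *Adal* did not pass (-0.31, edgeR adjusted p = 0.134). For *Icos* they were *Bmpr1a*, *Det1* and *Gm37166*, with r from 0.983 to 0.988. The libraries of a group share their label, which enters each r.

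Ligands and binding partners of the receptors formed the next list, with 20 genes named, 19 matched in the count table and 14 tested. In edgeR's test 3 rose and 4 fell, which is 50.0% of those tested, and the median log2 fold change was 0.24. *Ceacam1*, a ligand proposed for TIM-3, fell from 14.3 ± 2.86 to 2.61 ± 0.359 CPM (SD, n = 3; log2 fold change -2.45, edgeR adjusted p = 0.000395). *Tnfrsf14*, which encodes the BTLA and CD160 ligand HVEM, fell (log2 fold change -0.88, edgeR adjusted p = 0.0116), against the rise of *Btla*, while *Tnfsf14*, a second ligand of HVEM, rose by 0.57 on that scale (edgeR adjusted p = 0.0245). *Pvr*, which encodes the TIGIT and CD226 ligand CD155, fell (log2 fold change -0.65, edgeR adjusted p = 0.0167), and *Cd80*, named after its values were seen, also fell (-0.40, edgeR adjusted p = 0.0349). *Cd86*, for the other shared ligand of CD28 and CTLA-4, was low, at means of 5.03 and 2.65 CPM. It was lower in every *Pgam* ASO library but did not pass (log2 fold change -0.92, edgeR adjusted p = 0.0540). *Hmgb1* (0.38) and *Lgals9* (0.33), which encode proteins that bind TIM-3, rose. *Ceacam1* has 37.6% of its 31-base stretches in common with others, mainly *Ceacam2*, and *Hmgb1* shares 24.7%, mainly with pseudogenes, and summed with the genes sharing at least 10% their log2 fold changes were -2.44 and 0.38. The count of 7 became 3 without scrambled ASO replicate 1 (4.02% of all genes called), 3 without *Pgam* ASO replicate 1 (5.60%) and 1 without *Pgam* ASO replicate 2 (2.51%), against 17.2% of all genes with every library.

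Among other co-receptors, 21 of 23 genes were tested, and 3 rose and 7 fell (47.6%, against 17.2% of all tested genes), with a median log2 fold change of -0.44. *Tnfrsf8*, which encodes the activation receptor CD30, rose from 40.8 ± 15.3 to 152 ± 25.3 CPM (SD, n = 3; log2 fold change 1.90, edgeR adjusted p = 0.00914). *Slamf1* (0.39) and *Cd226* also rose. *Cd27*, a co-stimulatory receptor of naïve and memory cells, fell from 87.4 ± 44.4 to 19.7 ± 8.84 CPM (SD, n = 3; log2 fold change -2.15, edgeR adjusted p = 0.0372), with replicate 2 of the scrambled ASO group far above the others at 2521 counts. The inhibitory receptors *Lair1* (-0.94) and *Cd101* (-0.93) fell as well. The count of 10 became 3 without scrambled ASO replicate 1, 5 without *Pgam* ASO replicate 1 and 2 without *Pgam* ASO replicate 2, fits that called 4.02%, 5.60% and 2.51% of all genes.

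Of 29 proximal signalling relays, the kinases, adaptors and brakes below the receptors, 1 rose and 4 fell (17.2%), the same share as over all tested genes, and the median log2 fold change was -0.075. *Dgka* (-1.31, edgeR adjusted p = 0.00835), which encodes a lipid kinase that limits diacylglycerol signalling, *Cblb* (-1.08, edgeR adjusted p = 0.00188), which encodes a ubiquitin ligase that restrains cells lacking CD28 signals, and the phosphatase gene *Ubash3b* (-0.47) fell. *Sh2d1a*, which encodes the SLAM adaptor SAP, rose (0.47, edgeR adjusted p = 0.00715). The count of 5 became 8 with DESeq2, 9 with no filter on low counts and 9 without scrambled ASO replicate 3, where 21.4%, 13.1% and 22.5% of all genes were called. It became 8 without *Pgam* ASO replicate 3 (21.5% of all genes), 3 without scrambled ASO replicate 1 (4.02%) and 3 without *Pgam* ASO replicate 2 (2.51%). *Sh2d1a* shares 26.1% of its 31-base stretches, mainly with *Tenm1*, and summed with it had a log2 fold change of 0.47.

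Regulators of RNA decay and protein traffic had 17 of 17 genes tested, with 1 higher and 6 lower (41.2%, against 17.2% of all tested genes) and a median log2 fold change of -0.21. *Zc3h12d* (-1.03, edgeR adjusted p = 0.000669), *Zfp36* (-0.87, edgeR adjusted p = 0.0116) and *Zfp36l1* (-0.87, edgeR adjusted p = 0.00391), which encode proteins that promote mRNA decay, fell. *Cmtm4*, whose product stabilises PD-L1, rose (0.37, edgeR adjusted p = 0.0290). It was the only gene of the list to rise, and its call was lost without scrambled ASO replicate 1 or 2 and without *Pgam* ASO replicate 1 or 2. *Zfp36l1* has 60% of its 31-base stretches in common with others and is uncertain for that reason. The count of 7 became 3 without scrambled ASO replicate 1 (4.02% of all genes called), 4 without scrambled ASO replicate 2 (8.22%), 3 without *Pgam* ASO replicate 1 (5.60%) and 2 without *Pgam* ASO replicate 2 (2.51%).

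In the list of transcription factors known to act on checkpoint genes, 21 of 21 were tested, and 2 rose and 10 fell (57.1%, against 17.2% of all tested genes, 8.03% higher and 9.15% lower), with a median log2 fold change of -0.57. *Bcl6* (-1.97, edgeR adjusted p = 0.0220), *Foxp3* (-1.41, edgeR adjusted p = 0.00567) and *Tcf7* (-1.19, edgeR adjusted p = 0.0298), factors of follicular helper cells, Tregs and naïve or memory cells, had the largest falls in the list. *Batf* (0.75, edgeR adjusted p = 0.0108), an AP-1 family factor, and *Nfatc2* (0.26, edgeR adjusted p = 0.0443), which encodes NFAT1, rose. The count of 12 became 6 without scrambled ASO replicate 1, 7 without *Pgam* ASO replicate 1 and 4 without *Pgam* ASO replicate 2, where 4.02%, 5.60% and 2.51% of all genes were called. *Foxp3* shares 26.4% of its 31-base stretches with *Flicr* and other genes, and summed with those sharing at least 10% had a log2 fold change of -1.43.

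**Figure D5:**
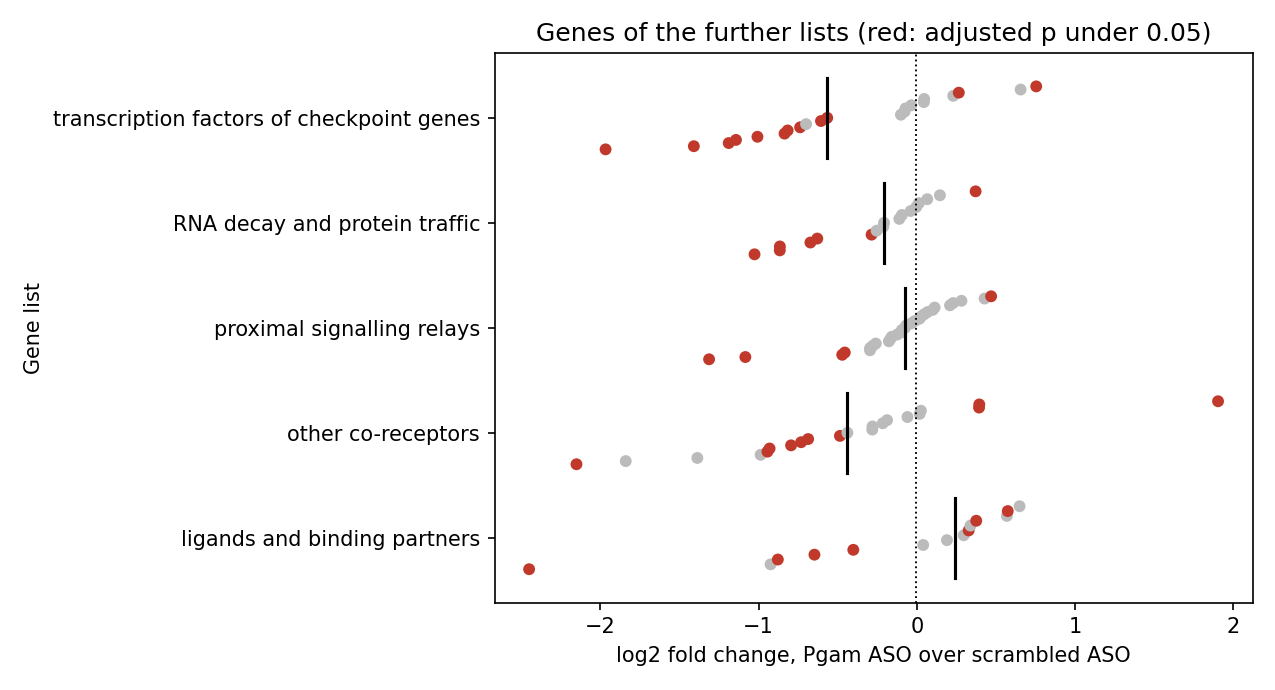
Log2 fold change, *Pgam* ASO over scrambled ASO, of each tested gene in the 5 further lists, with n = 3 libraries per label, red for an edgeR adjusted p under 0.05, a bar at each list's median and a dotted line at the median of all tested genes. Medians run from -0.57 for transcription factors to 0.24 for ligands and binding partners.

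Markers of other cells were read in the same libraries. The 2 CD8 markers summed to 11.2, 13.5 and 10.8 CPM against 14.6, 10.9 and 15.7 CPM, and *Cd8a* rose (log2 fold change 1.12, edgeR adjusted p = 0.0286) while *Cd8b1*, the more abundant, did not pass. Of 6 NK cell markers, *Klrb1c* and *Klra8* were at 0 in every library, and the sums of 55.6, 34.7 and 57.7 CPM against 34.4, 31.3 and 27.4 CPM were mostly *Eomes*, which activated T cells also express and which fell (-0.82, edgeR adjusted p = 0.0214). Without *Eomes* the sums were 3.10, 2.59 and 2.73 CPM against 6.21, 4.43 and 3.25 CPM, higher in every *Pgam* ASO library, and *Klrk1* had a log2 fold change of 0.83 without passing. The 5 mast cell and basophil markers summed to between 5.03 and 7.37 CPM in every library, and *Kit*, most of that sum only under the scrambled ASO label, fell (-1.68, edgeR adjusted p = 0.0142). Without *Kit* the sums were 1.07, 1.89 and 1.36 CPM against 4.10, 3.98 and 2.96 CPM. *Cpa3* (log2 fold change 1.09, edgeR adjusted p = 0.0526), *Mcpt8* and *Fcer1a* were each higher in all *Pgam* ASO libraries. The 8 myeloid markers summed to between 70.4 and 109 CPM, mostly *Cst3*, and the 4 tested had edgeR adjusted p-values from 0.0933 to 0.481. Without *Cst3* the sums were 8.61, 9.88 and 8.24 CPM against 7.02, 6.16 and 7.99 CPM, lower in every *Pgam* ASO library. *Cd68* was lower and *Lyz2* higher in all *Pgam* ASO libraries. Erythroid and platelet markers, 5 in all, summed to between 0.929 and 2.43 CPM, with *Hba-a1* the only gene tested (edgeR adjusted p = 0.914). *Hbb-bt* had 2, 0 and 2 counts against 4, 4 and 15, and *Pf4* had 2, 3 and 0 against 4, 4 and 10. Both were low and higher in every *Pgam* ASO library, while the others of that list overlapped. For comparison, the groups did not overlap in 39.5% of all tested genes. The part of all these markers in the values of the checkpoint genes was not tested.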

How the data were processed

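Per the labels and the study's methods, the authors estimated counts with Kallisto (version not given in the sources used here) on GRCm38, and the deposited table holds 1 estimated count per Ensembl gene and library as whole numbers without normalization. How transcripts were summed and rounded is not given there. Symbols were matched for 52073 of the 56748 genes, and coordinates come from GENCODE M21.

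The analysis used edgeR 4.0.16 under R 4.3.3, with filterByExpr defaults, TMM and the robust quasi-likelihood F-test (two-sided). The p-values were adjusted by Benjamini and Hochberg's method over 14936 tested genes, and the threshold was 0.05. The study used DESeq2, run here as an alternative (1.42.0), beside limma-voom (3.58.1). Standard errors and 95% intervals were derived from the F statistic. Sequence sharing was measured as the percent of a gene's 31-base stretches found in GENCODE M21 transcripts of another gene. The procedure was tested on simulated data, and the outcome is not given here. Chi-square per degree of freedom between libraries was at least 7.43, so no library was a duplicate.

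All 10 members are named, with *Pgam1*, *Pgam2*, *Foxp3* and *Cd226*; the 3 largest rises and falls per further list among genes past the threshold with a mean of at least 1 CPM; and the 3 genes most like each of the 3 most expressed members. Other names were chosen after their values were seen. The members and lists were chosen with earlier results of these data known. Alternatives were other tests, scalings and filters, a replicate block, each library left out, another added count, another gene length and, chosen after seeing the data, summing genes that share sequence. The sums of 1 marker list are not reported here, because they need an item withheld for evaluation.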

Additional observations from a re-analysis of the deposited data

How the results depend on the processing

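Besides each library left out, 8 other settings were run: no filter on low counts, at least 10 counts in every library, a replicate block, DESeq2, limma-voom, library size alone, RLE size factors, and a fit lacking ribosomal and mitochondrial genes. *Cd28* kept its call in all of them. Counts of called checkpoint genes were 5 with no filter, and with libraries left out ran from 1 (scrambled ASO replicate 1, *Pgam* ASO replicate 2) to 2 (scrambled ASO replicate 2 and others). With libraries left out, counts ran from 1 to 8 for ligands, 2 to 13 for other co-receptors, 3 to 9 for relays, 2 to 8 for RNA decay and traffic and 4 to 12 for transcription factors, the lowest without *Pgam* ASO replicate 2. Over all genes, calls in those fits ran from 391 (2.51%, without *Pgam* ASO replicate 2) to 3484 (22.5%, without scrambled ASO replicate 3). With no filter, relays had 9 called, and DESeq2 gave 8.

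Among the 10 checkpoint genes, *Pgam1*, *Pgam2*, *Foxp3* and *Cd226*, the genes whose fold changes were compared across all settings, signs turned only where there was no call. *Pdcd1* ran from -0.18 (without *Pgam* ASO replicate 1) to 0.24 (without replicate 3), *Cd274* between the same libraries from -0.055 to 0.21, and *Havcr2* from -0.17 to 0.22. *Cd160* ran from -0.33 (without *Pgam* ASO replicate 1) to 0.12 (without scrambled ASO replicate 2). *Havcr2* was -0.023 with limma-voom, -0.035 with library size, -0.0090 with at least 10 counts and -0.014 with the block. *Pgam2* was -0.83 with no filter (adjusted p = 0.0292), -1.12 without scrambled ASO replicate 3 and -0.56 without scrambled ASO replicate 2.

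Equal replicate numbers had a mean correlation of -0.0725 across groups after group means were removed, against 0.0364 for different numbers, so numbers were not taken as pairs. With replicate number as a block, 1235 genes (8.27%) were called, with 4 ligands and 3 genes of RNA decay and traffic (*Cmtm4* not among them), and the exact p of each ratio was 0.25. Groups of 3 limit every test here.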
